A study of Mus musculus with 2 samples.

Results

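The genes described here are 10 members of the tumor necrosis factor (TNF) and NF-kB feedback circuit in healing mouse skin, namely *Tnf*, *Tnfrsf1a*, *Tnfrsf1b*, *Tnfaip3*, *Nfkbia*, *Nfkbiz*, *Nfkb1*, *Birc3*, *Icam1* and *Traf1*. They were taken by symbol, each symbol had 1 row, and they make up 10 of the 31053 genes counted. Wound tissue of the back skin was collected 5 days after wounding, and live cells, sorted as negative for the dye 7AAD, were captured with the 10x Genomics 3' v3 kit, giving 1 library labelled PBS and 1 library labelled DTX (diphtheria toxin). By the labels both libraries came from C57BL/6 mice aged 7 to 9 weeks that carried Mrc1-DTR, in which the *Mrc1* (CD206) promoter drives a receptor for diphtheria toxin, so that the toxin should kill cells that express *Mrc1*, while the methods describe the controls as wild-type mice that also received the toxin. Wounds of 3 mice were pooled in each group, with technical and no biological replicates. Since there was 1 library per group, no test between the conditions was possible. All intervals are 95% intervals that cover counting error only, and differences between mice or captures could not be estimated.

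TNF binds the receptors TNFR1 and TNFR2, and adaptor and ubiquitin ligase proteins assembled on them activate the IkB kinase. The kinase marks the inhibitor IkB-alpha for degradation, which lets NF-kB dimers enter the nucleus and turn on inflammatory genes together with the inhibitors that end the signal. In skin wounds TNF is best known from neutrophils and macrophages, and adhesion molecules of vessels and stromal cells are among the classic targets.

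NF-kB sites near the start of the gene are known for several members, and the start regions that held a match are shown. Of the 10 members, 8 had entries among the RefSeq promoter windows of GRCm38.p6 (300 bases, 250 before and 50 after the start), with 9 windows in all, and *Nfkbiz* and *Nfkb1* had none. The motif GGG, any 3 bases and TTCC, a form of the NF-kB site, was searched on both strands with overlapping matches allowed and was found in 3 of the 9 windows, those of *Nfkbia* and of both start sites of *Tnfaip3*, and in 5.56% of all 32851 windows. The bases before the start are shown 5' to 3' on the strand of the gene, with the match in capitals, for *Nfkbia* (chr12:55492648-55492897, minus strand), for the first start site of *Tnfaip3* (chr10:19015411-19015660, minus strand) and for the second (chr10:19011964-19012213, minus strand). The match began 29, 12 and 90 bases before the start, and those of *Nfkbia* and of the first *Tnfaip3* start site lay on the strand opposite to the gene. A further match in the window of the first *Tnfaip3* start site began 34 bases after the start and is not shown. A match describes letters and was not tested as a binding site.
Nfkbia: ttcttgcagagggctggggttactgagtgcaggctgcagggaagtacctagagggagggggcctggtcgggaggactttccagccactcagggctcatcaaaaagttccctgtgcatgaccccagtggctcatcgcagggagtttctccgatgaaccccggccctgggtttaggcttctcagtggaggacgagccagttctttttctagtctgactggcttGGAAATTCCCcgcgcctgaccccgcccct
Tnfaip3 start site 1: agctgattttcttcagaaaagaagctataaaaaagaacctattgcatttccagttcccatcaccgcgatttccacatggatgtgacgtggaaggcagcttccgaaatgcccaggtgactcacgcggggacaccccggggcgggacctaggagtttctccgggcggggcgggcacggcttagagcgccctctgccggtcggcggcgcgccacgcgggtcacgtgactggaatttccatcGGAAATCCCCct
Tnfaip3 start site 2: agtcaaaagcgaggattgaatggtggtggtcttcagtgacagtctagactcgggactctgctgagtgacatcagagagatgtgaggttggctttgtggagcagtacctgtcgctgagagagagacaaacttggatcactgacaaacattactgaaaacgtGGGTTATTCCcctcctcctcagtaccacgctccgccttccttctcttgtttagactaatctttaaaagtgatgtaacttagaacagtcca

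The library labelled PBS kept 7944 cells with a median of 9579.5 UMIs (unique molecules counted), and the library labelled DTX 6613 cells with a median of 7286. Kept cells passed limits of 500 genes or more and of 6% mitochondrial UMIs or less and were not removed as doublets, and 37 barcodes occurred in both libraries, 24 and 22 of them among the kept cells. The labels were checked with *Mrc1*, the gene whose promoter drives the receptor. In macrophage-like cells its level was 490 CPM (the UMIs of a gene scaled by all UMIs of the class) in the library labelled PBS and 433 in the library labelled DTX, and over all kept cells 65.4 and 268, so that *Mrc1* was still read at a similar level in the macrophage-like cells of the library labelled DTX. Within 7 subclusters of macrophage-like cells *Mrc1* was higher in the library labelled DTX in 6. The interval of the ratio was above 0 in 5 of the 7 and below 0 in 0. The cell numbers that the study gives for its groups also match the barcodes the other way round from the labels. The makeup of the cells ran the other way, since the study describes depleted wounds as richer in immune cells and in *Vcan*+ and *Cd9*+ macrophages and poorer in fibroblasts, which is the direction from the library labelled PBS to the library labelled DTX. Macrophage-like cells made up 23.0% and 68.6% of the kept cells and fibroblast-like cells 38.6% and 9.92%, and among macrophage-like cells the *Vcan*-like subcluster held 2.57% and 29.0% and the *Cd9*-like subcluster 0.382% and 22.3%. The labels were followed, and every direction below runs from the library labelled PBS to the library labelled DTX. Cells were clustered without the members and without 85 further genes of the pathway, and 10 named classes were described, 8 of which had at least 50 cells in each library and were compared. Genes of other cell types, taken as a sign of free RNA that was not itself measured, differed too. Summed over 6 fibroblast genes, the level in macrophage-like cells was lower in the library labelled DTX, with a log2 ratio of -2.28. It was also lower over 6 keratinocyte genes with -1.92, and over 6 neutrophil genes it was higher with 0.83. The neutrophil sum includes a macrophage-like subcluster of 9 and 32 cells led by *S100a9* and *S100a8*. *Mmp9*, which is in that sum, was among the leading genes of another macrophage-like subcluster, of 0 and 49 cells. The neutrophil sum can thus include RNA of the cells themselves. The part of these RNAs in the results was not tested.

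*Tnf* (chr17:35199381-35202007, minus strand), which encodes the ligand, had its highest levels in neutrophil-like, macrophage-like, mast-like and Langerhans-like cells. Its level was 107 CPM (61.4 to 175) in neutrophil-like cells of the library labelled PBS, from 16 UMIs, and 176 (150 to 206) in those of the library labelled DTX, from 156 UMIs. In macrophage-like cells it was 62.0 (57.0 to 67.3) and 55.4 (52.8 to 58.1), from 571 and 1749 UMIs. Neutrophil-like cells thus stood above macrophage-like cells in both libraries, with intervals that overlapped in the library labelled PBS, while macrophage-like, mast-like (42.9 and 70.7 CPM) and Langerhans-like cells (70.6 and 35.9) could not be put in order. Epithelial-like cells had 13.0 and 18.3 CPM, dendritic-like cells 10.8 and 15.3, and fibroblast-like cells 2.17 and 3.20. With every cell thinned to 1000 UMIs, which left out 26 and 28 shallower macrophage-like cells, 5.65% and 5.28% of macrophage-like cells had a *Tnf* UMI (22.0% and 25.3% without thinning, at median depths of 4824 and 6762.5 UMIs). The same share in fibroblast-like cells, taken as the background from free RNA, was 0.0981% and 0.459% (1.66% and 3.05% without thinning, at median depths of 11177 and 13959.5).

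The receptors differed in where they were read. *Tnfrsf1a* (chr6:125349362-125362484, plus strand) encodes TNFR1, the receptor with a death domain that most cells carry. Its level was 262 and 232 CPM in neutrophil-like cells, 120.0 and 109.6 in macrophage-like, 117 and 114 in endothelial-like, 100.4 and 99.3 in fibroblast-like and 83.2 and 102 in epithelial-like cells. Neutrophil-like cells stood above the rest, the other 4 classes just named lay close together, and NK or T-like cells were well below with 33.2 and 28.2. *Tnfrsf1b* (chr4:145213463-145246870, minus strand) encodes TNFR2, which has no death domain and is found mainly on leukocytes and endothelium. It ran from 322 and 397 CPM in neutrophil-like cells through 229 and 243 in macrophage-like and 201 and 197 in NK or T-like cells, each above the next in both libraries although the intervals of neighbours overlapped in the library labelled PBS, down to 15.7 and 23.8 in pericyte-like and 4.32 and 10.8 in epithelial-like cells. Fibroblast-like cells held 92.3 and 76.8 CPM of *Tnfrsf1b*, so that among stromal cells it was not limited to endothelial-like cells (46.7 and 80.4).

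*Traf1* (chr2:34941750-34961772, minus strand), an adaptor that binds TNFR2 and the ubiquitin ligases next to it, was read mainly in leukocytes and in endothelial-like cells. It stood at 439 and 618 CPM in dendritic-like and at 470 and 476 in NK or T-like cells, whose order could not be told, then at 338 and 330 in Langerhans-like, 275 and 286 in neutrophil-like and 147 and 191 in macrophage-like cells. Endothelial-like cells, with 84.9 and 139 CPM, stood below macrophage-like cells in both libraries. Pericyte-like cells had 23.5 and 19.7, fibroblast-like cells 8.56 and 16.7 and epithelial-like cells 3.30 and 7.21. *Birc3* (chr9:7848699-7873186, minus strand) encodes cIAP2, a ubiquitin ligase that protects cells from TNF-induced death. Its level was highest in neutrophil-like cells with 242 and 225 CPM, fibroblast-like cells had 118 and 85.2, and 66.9 and 82.5 were read in macrophage-like cells.

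Among the inhibitors, *Nfkbia* (chr12:55489410-55492647, minus strand), which encodes IkB-alpha, was read in every class and reached 1888 and 2998 CPM in neutrophil-like cells. Endothelial-like cells came next with 1514 and 1699, and macrophage-like cells, with 557 (542 to 572) and 914 (903 to 924), were near the lower end together with NK or T-like (765 and 707) and Langerhans-like cells (638 and 495). *Nfkbiz* (chr16:55811375-55838899, minus strand) encodes IkB-zeta, a nuclear member of the IkB family that modulates NF-kB at a subset of genes. Its levels were high in mast-like cells (423 and 1252 CPM, from 34 and 18 cells) and neutrophil-like cells (477 and 738), lay between 299 and 398 CPM in pericyte-like, endothelial-like, fibroblast-like and epithelial-like cells of both libraries, and were at the low end in macrophage-like cells (93.1 and 98.3). *Tnfaip3* (chr10:19000910-19015657, minus strand) encodes A20, a ubiquitin-editing enzyme that shuts off signalling from TNFR1. Mast-like cells had 348 and 375 CPM of it, from 65 and 53 UMIs, NK or T-like cells 339 and 282 and neutrophil-like cells 242 and 298. Pericyte-like cells had 173 and 271, epithelial-like cells 229 and 184, and macrophage-like cells 126 and 111. All 3 inhibitors were thus lower in macrophage-like cells than in fibroblast-like and epithelial-like cells of the same library.

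*Nfkb1* (chr3:135584655-135691547, minus strand) encodes p105, the precursor of the NF-kB subunit p50 and itself an inhibitor. Its levels were 798 and 1323 CPM in mast-like cells (34 and 18 cells), 837 and 980 in fibroblast-like and 627 and 839 in dendritic-like cells. Macrophage-like cells had 422 and 497, neutrophil-like cells 450 and 338 and endothelial-like cells 310 and 462. *Icam1* (chr9:21015985-21028817, plus strand), the adhesion molecule to which leukocyte integrins bind, was spread more widely. It reached 967 (908 to 1028) and 1250 (1172 to 1332) CPM in endothelial-like cells, 443 and 318 in fibroblast-like and 164 and 120 in pericyte-like cells, against 32.3 and 38.2 in macrophage-like cells. Endothelial-like and fibroblast-like cells kept this order in both libraries, and pericyte-like, neutrophil-like and dendritic-like cells could not be ordered among themselves.

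**Figure D1:**
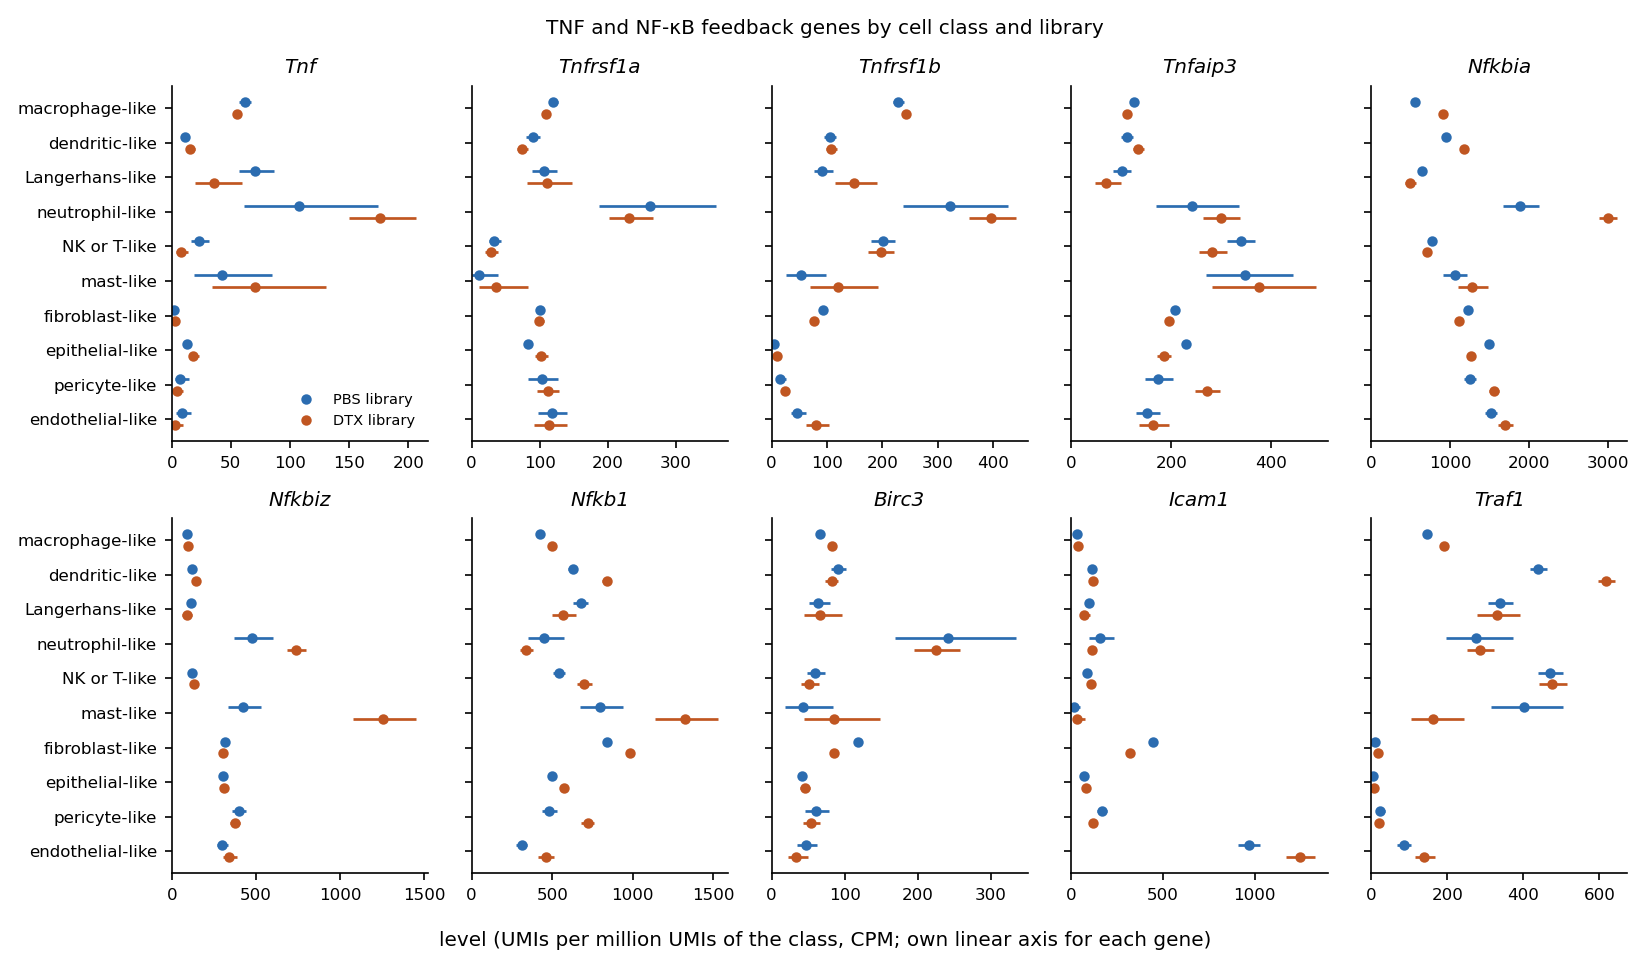
Levels of the 10 genes in 10 cell classes, 1 panel per gene with its own linear axis in CPM, as points with 95% Poisson intervals for the library labelled PBS (blue) and the library labelled DTX (orange). The points of *Tnf*, *Tnfrsf1b* and *Birc3* are highest in neutrophil-like cells, those of *Traf1* in dendritic-like and NK or T-like cells and those of *Icam1* in endothelial-like cells, at 967 and 1250 CPM. For *Tnf* and *Tnfrsf1b* the intervals of neutrophil-like and macrophage-like cells overlap in the library labelled PBS.

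Across the 20 levels of 10 classes in 2 libraries, on the scale log2(CPM + 1), the genes with the most similar patterns were sought among 10230 genes with at least 500 UMIs. *C5ar2* and *Lpcat2* came closest to *Tnf* (Pearson r 0.89 and 0.87), and *Hcls1*, *Rin3* and *Lcp1* to *Traf1* (0.96, 0.95 and 0.94). For *Icam1* they were *Rnd1*, *Jam2* and *Aqp1* (0.91, 0.87 and 0.87), and for *Tnfrsf1b* *Ncoa3* and *Arpc3* (0.94 and 0.89). The 2 inhibitors *Nfkbia* and *Nfkbiz* had patterns close to each other (0.79), and *Nfkbia* was otherwise nearest to *Lcn2* and *Rnf11* (both 0.82). *Nfkbiz* was nearest to *Myo1d*, *Csf1* and *Egr3* (0.86, 0.81 and 0.80), *Tnfaip3* to *Rnf19a*, *Lbr* and *A630072M18Rik* (0.81, 0.81 and 0.80), and *Nfkb1* to *Meis1*, *Selenos* and *Epg5* (0.85, 0.75 and 0.73). For *Tnfrsf1a* the nearest were *Marcks*, *App* and *Cdc42ep4* (0.84, 0.83 and 0.83), and for *Birc3* *Dhrs7*, *Rnf149* and *Gabarap* (0.86, 0.83 and 0.83). *Tnf* and *Icam1* ran opposite to each other (-0.64). These are descriptions over 20 points, of which every 10 share a library, and some points rest on few cells.

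Over whole libraries the members looked far apart. *Tnf* stood at 14.99 CPM in the library labelled PBS and 38.6 in the library labelled DTX, a log2 ratio of 1.31 (1.21 to 1.41, with 1 CPM added to each level, as in all ratios). *Tnfrsf1b* was higher by 1.16 and *Traf1* by 1.68, while *Nfkbiz* (272 and 179 CPM) had a log2 ratio of -0.60 and *Icam1* (242 and 120) of -1.01. In all, 3 of the 10 members were higher and 2 lower by 1.5-fold or more, where 15.6% of 14439 genes were higher and 19.3% lower. The makeup of the cells differed as well, and its part in these ratios was not tested. Macrophage-like cells held 46.9% of the *Tnf* UMIs in the library labelled PBS and 82.5% in the library labelled DTX, epithelial-like cells 30.4% and 3.35%, and fibroblast-like cells 79.1% and 46.9% of the *Icam1* UMIs. The comparison was therefore made within classes.

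Within macrophage-like cells *Nfkbia* was the member with the largest difference. Its level of 557 CPM in the library labelled PBS and 914 in the library labelled DTX gave a log2 ratio of 0.71 (0.67 to 0.76), from 5133 and 28839 UMIs. After thinning to 1000 UMIs, 38.3% and 52.5% of the cells had an *Nfkbia* UMI (75.8% and 92.4% without thinning). *Nfkbia* was thus 1 of 10 members higher by 1.5-fold or more, where 6.47% of 10254 genes were, and no member was lower by that much, where 7.7% of the genes were. A count of 1 in 10 is near that background and is no result about the members. *Tnf* itself was not higher in these cells, with a ratio of -0.16 (-0.29 to -0.02), nor was *Tnfaip3* with -0.18 (-0.27 to -0.08). Smaller differences with intervals away from 0 were seen in both directions. The other ratios were 0.37 (0.29 to 0.46) for *Traf1*, 0.30 (0.17 to 0.42) for *Birc3*, 0.24 (0.19 to 0.29) for *Nfkb1*, 0.23 (0.05 to 0.42) for *Icam1*, 0.08 for *Tnfrsf1b* and *Nfkbiz* and -0.13 for *Tnfrsf1a*. The median of the 10 members was 0.16, that of all genes tested 0.06. The 10 immediate early and heat shock genes, read as a sign of stress during digestion, had a summed ratio of -0.20 (-0.22 to -0.18).

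The other genes of the pathway, of which 78 of 85 reached 50 UMIs in macrophage-like cells, differed in both directions, with a median of 0.05. By 1.5-fold or more 5 were higher and 12 lower, where 6.47% of 10254 genes were higher and 7.7% lower. The 5 were the chemokine genes *Ccl3* (64.9 and 155 CPM, 1.25) and *Cxcl2* (2672 and 5390, 1.01), *N4bp1*, which restrains NF-kB (96.9 and 184, 0.92), *Ptgs2*, the inducible cyclooxygenase (163 and 301, 0.88), and the cytokine gene *Il1b* (1911 and 3506, 0.88). The lowest ratios among the 12 were those of *Vcam1*, another adhesion molecule (38.4 and 11.7 CPM, -1.64), the chemokine gene *Ccl5* (103 and 39.9, -1.35), the receptor gene *Cd40* (71.7 and 29.2, -1.27), *Ptx3* (11.6 and 4.34, -1.24) and *Tnip3*, which binds A20 (122 and 55.5, -1.12). *Vcam1* and *Ptx3* were also among the leading genes of fibroblast-like clusters when all cells were clustered at resolution 0.5. The fibroblast genes taken as a sign of free RNA had a summed ratio of -2.28 in macrophage-like cells. The part of free RNA in the ratios of *Vcam1* and *Ptx3* was not tested. The makeup of the macrophage-like cells differed too. *Ccl3* was among the leading genes of the *Cd9*-like subcluster, with 0.382% and 22.3% of these cells. *Tnip3* was among those of an unnamed subcluster (10.5% and 2.18%) and *Ccl5* among those of the *Ifit1*-like one (3.39% and 1.63%). The study lists *Vcam1* and *Ptx3* for its *C1qa*+ macrophages. Ratios of pathway genes within subclusters are not given, and the part of the makeup was not tested. By role, with the same background, 4 of 27 targets were higher and 7 lower, and of 16 inhibitors 1 was higher and 1 lower. No subunit among 4 and no adaptor or kinase among 19 was higher, and 1 adaptor or kinase was lower. Of 6 related receptors 2 were lower, as was 1 of 6 ligands and their releasing enzymes.

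The macrophage-like cells were divided into 10 subclusters, and their makeup differed strongly between the libraries. The *Vcan*-like subcluster held 47 cells of the library labelled PBS and 1316 of the library labelled DTX, and the *Cd9*-like subcluster, led by *Arg1*, 7 and 1010. Within the 7 subclusters with at least 20 cells of each library, *Nfkbia* was higher in the library labelled DTX in 7 of 7, each with an interval above 0, but by less than over the class as a whole. The ratios ran from 0.16 (0.07 to 0.26) in an unnamed subcluster led by *C1qa* and MHC class II genes (509 and 570 CPM) to 0.48 (0.28 to 0.68) in the *Ccl7*-like subcluster (471 and 655). In the *Vcan*-like subcluster *Nfkbia* stood at 832 and 1061 CPM and in the *Cd9*-like cells of the library labelled DTX at 1095, above the 509 and 482 CPM of the 2 subclusters with the most cells of the library labelled PBS. With both libraries weighted to the subcluster makeup of the library labelled PBS, a comparison added after the data were seen, *Nfkbia* had 555 and 671 CPM and a ratio of 0.27, below 1.5-fold.

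No other member had the same direction in all 7 subclusters. *Traf1* and *Icam1* were higher in the library labelled DTX in 6 of 7, *Birc3* in 5, *Nfkb1*, *Nfkbiz*, *Tnfaip3* and *Tnfrsf1b* in 4, *Tnf* in 3 and *Tnfrsf1a* in 1. The interval was above 0 in 3 and below 0 in 0 for *Traf1*, and in 2 and 0 for *Birc3* and *Tnf*. Intervals on both sides were found for *Nfkb1* (3 and 2), *Nfkbiz* (3 and 1), *Tnfrsf1b* (2 and 2), *Icam1* (2 and 1) and *Tnfaip3* (1 and 2). For *Tnfrsf1a* they were 0 and 2. *Icam1* was the most uneven, with 69.1 and 30.1 CPM in the *Ccl7*-like subcluster (-1.17, -1.72 to -0.59) and 35.6 and 71.0 in the *Klf2*-like subcluster (0.98, 0.54 to 1.42). In the latter, led by *Hspa1a*, *Ccl8* and *Hspa1b*, the immediate early and heat shock genes summed to 4105 and 11057 CPM. Beside them *Tnfaip3* (150 and 226 CPM, 0.58), *Traf1* (67.9 and 117, 0.78) and *Tnf* (88.0 and 112, 0.34) were higher. Lower there were *Tnfrsf1b* (212 and 148 CPM, -0.51, -0.75 to -0.27) and *Nfkb1* (317 and 226, -0.49, -0.69 to -0.30). *Tnf* differed most in the *Ifit1*-like subcluster, marked by interferon-induced genes, with 43.2 and 98.3 CPM (1.17, 0.35 to 2.07) from 15 and 61 UMIs, and *Nfkbiz* stood there at 77.7 and 172 CPM (1.14, 0.53 to 1.80). The highest *Tnf* level of any macrophage-like subcluster, 264 CPM, was in 32 cells of the library labelled DTX led by *S100a9* and *S100a8*, in which the neutrophil genes summed to 12756 CPM. With the makeup of the library labelled PBS, the ratio was 0.05 for *Tnf*, 0.11 for *Tnfaip3*, 0.00 for *Nfkb1*, 0.20 for *Birc3*, 0.32 for *Traf1* and 0.50 for *Icam1*. The median of the members was then 0.10 and that of 10254 genes 0.11. No member was past 1.5-fold, where 5.91% of these genes were higher and 4.55% lower.

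**Figure D2:**
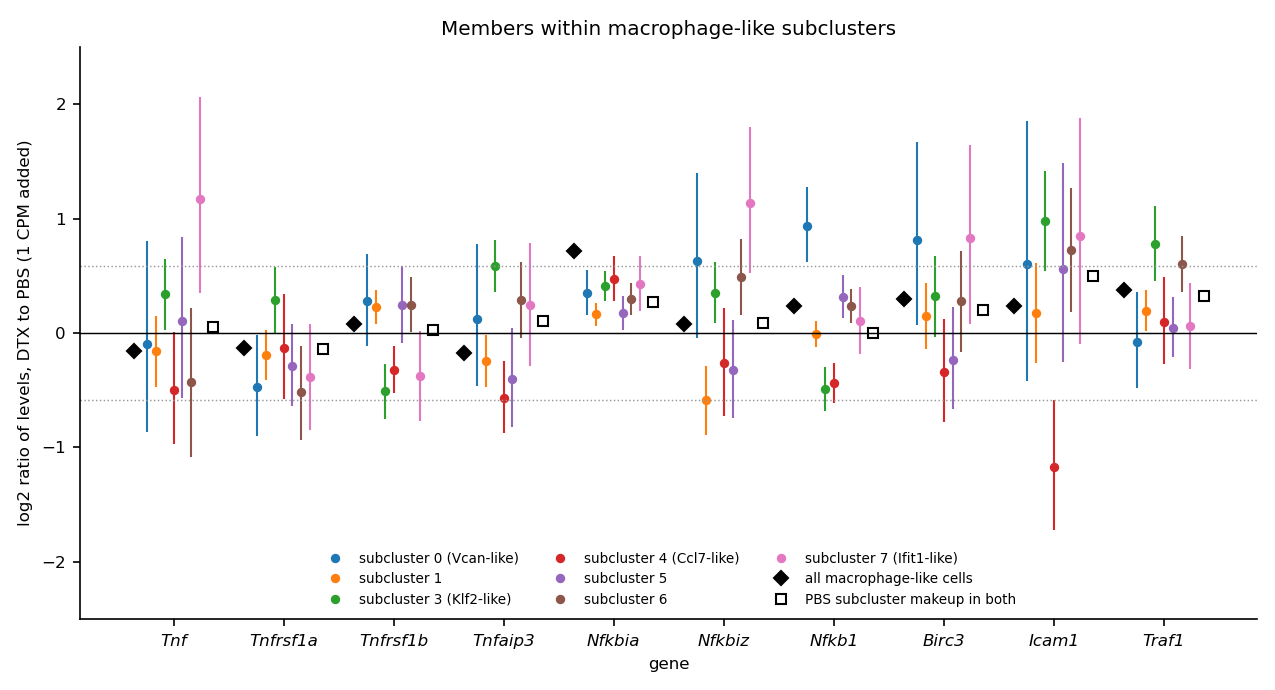
Log2 ratios of levels, library labelled DTX to library labelled PBS with 1 CPM added, for the 10 genes in 7 subclusters of macrophage-like cells (circles with 95% counting intervals), in all macrophage-like cells (diamonds) and with the subcluster makeup of the library labelled PBS in both (squares). Dotted lines mark 1.5-fold, and *Nfkbia* is above 0 in 7 of 7 subclusters, from 0.16 to 0.48.

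In neutrophil-like cells (119 and 429 cells) 3 members were higher by 1.5-fold or more in the library labelled DTX and none lower, where 14.3% of 2219 genes were higher and 24.6% lower. They were *Nfkbia* with 1888 and 2998 CPM (0.67, 0.49 to 0.85), *Nfkbiz* with 477 and 738 (0.63, 0.27 to 1.00) and *Tnf* with 107 and 176 (0.71, -0.03 to 1.54). The share of neutrophil-like cells with a *Tnf* UMI went the other way, with 11.1% of 99 cells and 8.47% of 425 cells after thinning (20 and 4 cells left out, and 9.24% and 13.8% without thinning), so no order was read for *Tnf*. *Nfkb1* had 450 and 338 CPM (-0.41). The neutrophil genes themselves had a summed ratio of 1.15 in this class and the fibroblast genes of -2.66. With a mitochondrial limit of 10%, or with the doublets kept, none of the members was higher by 1.5-fold and 1 was lower. No share over all genes is given for these settings, so the counts are not read as results about the members.

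In dendritic-like cells no member passed 1.5-fold in either direction, where 5.95% of 7579 genes were higher and 4.58% lower, and 8 of 10 ratios were positive, where 57.7% of all genes tested were, with a median of 0.26 against 0.05 over those genes. With at most 2000 genes per cell, which left 107 and 21 cells, the median of the members was -0.53 and 3 of them were lower by 1.5-fold or more. No share over all genes is given for that setting, so these values are not read as a result about the members. *Traf1* had 439 and 618 CPM (0.49, 0.40 to 0.59), *Nfkb1* 627 and 839 (0.42, 0.34 to 0.50) and *Nfkbia* 946 and 1180 (0.32, 0.25 to 0.38), while *Tnfrsf1a* had 90.0 and 73.9 (-0.28, -0.51 to -0.05). The makeup of the class differed too. An unnamed subcluster with *Traf1* at 614 and 764 CPM and *Nfkb1* at 694 and 1023 held 14.1% and 42.1% of these cells. Within the subclusters the ratios ran from 0.14 to 0.61 for *Traf1* and from -0.01 to 0.56 for *Nfkb1*. The part of the makeup was not tested. The immediate early and heat shock genes had a summed ratio of 0.48 in this class. In 1 of the 2 subclusters of mature dendritic-like cells, *Icam1* was at 158 and 373 CPM (1.23, 0.83 to 1.65), and in the other at 214 and 194 (-0.14). *Nfkbia* was at 466 and 755 CPM in type 1 dendritic-like cells (0.69, 0.50 to 0.89). In NK or T-like cells none of the 9 members tested passed 1.5-fold, where 5.83% of 6350 genes were higher and 3.78% lower. There *Nfkb1* had 541 and 700 CPM (0.37, 0.24 to 0.50), *Tnfaip3* 339 and 282 (-0.26, -0.45 to -0.08), and *Tnf* 22.7 and 7.76 from 37 and 11 UMIs, too few to be counted.

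Among the tissue cells, fibroblast-like cells (3066 and 656 cells) had lower *Icam1*, at 443 and 318 CPM (-0.48, -0.53 to -0.42), and lower *Birc3*, at 118 and 85.2 (-0.47, -0.58 to -0.36), in the library labelled DTX. Neither reached 1.5-fold, and the direction was not shared by the 2 clusters that make up the class. In the cluster of 2166 and 315 cells *Icam1* had 594 and 449 CPM (-0.40, -0.47 to -0.33) and *Birc3* 151 and 102 (-0.56, -0.72 to -0.41). In the cluster of 900 and 341 cells both were higher in the library labelled DTX, *Icam1* with 192 and 231 CPM (0.26, 0.17 to 0.36) and *Birc3* with 63.1 and 74.1 (0.23, 0.06 to 0.40). *Traf1*, at 8.56 and 16.7 CPM (0.89, 0.62 to 1.15), was the 1 member of 10 that was higher by that much, where 7.23% of 11813 genes were higher and 3.99% lower, and it was higher in both clusters (0.69 and 1.04). With ratios centred on the median gene, which stood at 0.12, 2 members were lower by 1.5-fold or more in this class. With at most 2000 genes per cell, which left 518 and 43 cells, the median of the members was -0.46. In that setting 0 were past 1.5-fold on the higher and 2 on the lower side. For these settings no share over all genes is given, so the values are not read as results about the members. In epithelial-like cells *Tnfrsf1b* (4.32 and 10.8 CPM, 1.15, 0.67 to 1.61) and *Traf1* (3.30 and 7.21, 0.93, 0.37 to 1.47) were higher, where 8.49% of 10288 genes were higher and 5.25% lower. With a mitochondrial limit of 10% 1 of them was, and no share over all genes is given for that setting either. *Tnfaip3* (-0.31) and *Nfkbia* (-0.25) had ratios below 0 over the class. Within its 2 clusters, of 1178 and 82 cells and of 888 and 153 cells, *Tnfaip3* had ratios of -0.10 (-0.24 to 0.04) and 0.04 (-0.15 to 0.22), and *Nfkbia* was lower in the first, with 1607 and 1151 CPM (-0.48, -0.55 to -0.41), and had 1327 and 1334 in the second. Beside these low levels, *Mrc1*, which both classes should lack, went from 2.94 to 15.3 CPM in fibroblast-like and from 2.84 to 15.7 in epithelial-like cells, while the sum of 12 macrophage markers, all of them detected, went from 1753 to 1190 and from 5103 to 4531 CPM. The 6 neutrophil genes went up in both classes, from 19.2 to 85.4 CPM in fibroblast-like cells (2.10, 1.96 to 2.24) and from 115 to 512 in epithelial-like cells (2.14, 2.06 to 2.22). Their sum was uneven over classes of the library labelled DTX, with 22.6 CPM in pericyte-like cells, so it is not an even measure of free RNA. The sum of all 8 neutrophil markers went from 233 to 220 and from 139 to 529 CPM, with *Retnlg* at 0 in epithelial-like cells of the library labelled PBS. Their part in these ratios was not tested.

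In the vessel wall, pericyte-like cells (61 and 111 cells) had *Tnfaip3* at 173 and 271 CPM (0.64, 0.38 to 0.91) and *Nfkb1* at 480 and 720 (0.59, 0.43 to 0.75), the latter just at 1.5-fold. These were 2 of 9 members tested, where 8.46% of 5637 genes were higher and 7.57% lower, and with means of single-cell CPM 1 was higher. In endothelial-like cells (73 and 55 cells) *Tnfrsf1b* had 46.7 and 80.4 CPM (0.77, 0.22 to 1.33) and *Traf1* 84.9 and 139 (0.70, 0.29 to 1.12), again 2 of 9, where 8.44% of 4991 genes were higher and 9.42% lower. With means of single-cell CPM, or with a mitochondrial limit of 10%, 1 member was higher. No share over all genes is given for these settings, nor for the one named for pericyte-like cells. Beside them the 6 neutrophil genes went from 0.95 CPM (1 UMI) to 281 (217 UMIs), a ratio of 7.18 (5.47 to 8.11), and the 12 macrophage markers from 329 to 398 CPM, with *Fcgr1* at 0 in the library labelled PBS. Of the 8 neutrophil markers 2 were detected in the library labelled PBS and 7 in the library labelled DTX, *Cxcr2* being at 0 in both. Their part in these ratios was not tested. *Icam1* was at 967 and 1250 CPM in these cells (0.37, 0.24 to 0.50), and its ratio in pericyte-like cells was -0.45. Whether classes differ from each other could not be tested.

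**Figure D3:**
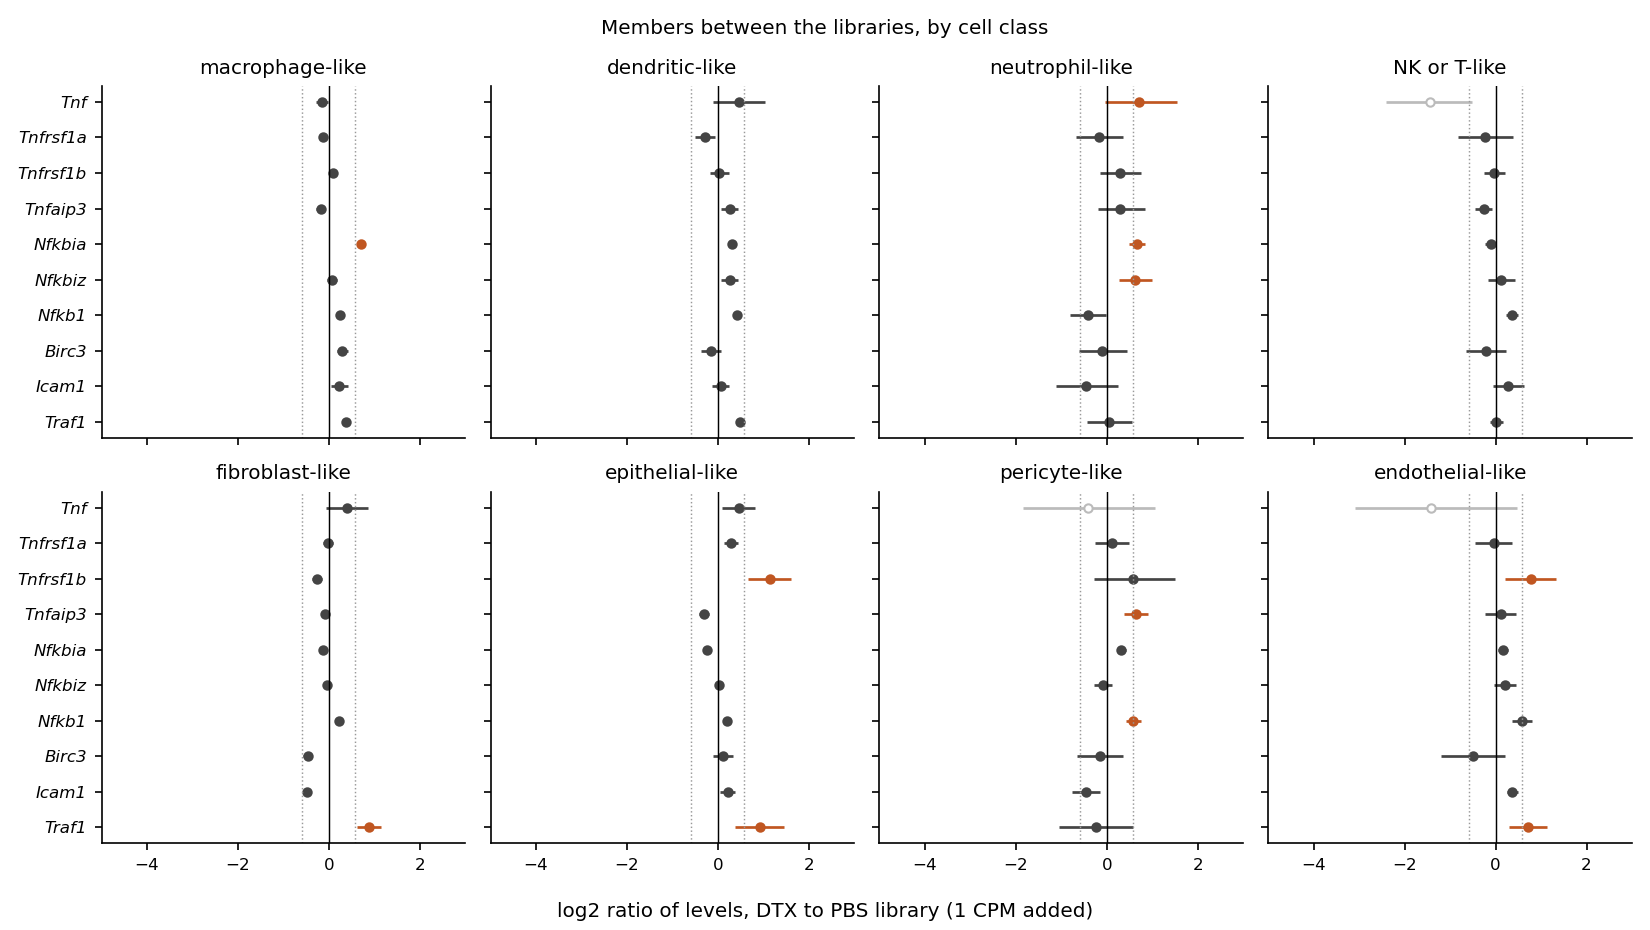
Log2 ratios of levels, library labelled DTX to library labelled PBS with 1 CPM added, of the 10 genes in 8 cell classes with 95% counting intervals. Orange points are at least 1.5-fold higher (dotted lines) with at least 50 UMIs, open grey points have fewer UMIs, and *Nfkbia* at 0.71 is the 1 orange point among macrophage-like cells.

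Within each library, macrophage-like cells with and without a *Tnf* UMI were then set side by side after thinning to 2000 UMIs. A *Tnf* UMI was found in 193 of 1607 cells of the library labelled PBS (12.0%) and in 434 of 4396 of the library labelled DTX (9.87%). In the library labelled PBS *Nfkbiz* was at 132 CPM in cells with *Tnf* and at 85.2 in cells without (0.63, 0.17 to 1.06), and *Icam1* at 49.2 and 29.0 (0.74, -0.04 to 1.46). In the library labelled DTX *Nfkbiz* was at 161 and 92.4 CPM (0.80, 0.53 to 1.06), *Tnfaip3* at 184 and 114 (0.69, 0.44 to 0.93) and *Icam1* at 57.6 and 37.0 (0.63, 0.17 to 1.06). Thus 2 and 3 of the 9 other members were higher by 1.5-fold or more, where 6.32% of 5297 genes and 3.9% of 7516 genes were. *Nfkbia* had 570 and 542 CPM (0.07, -0.14 to 0.28) in the library labelled PBS and 1139 and 870 (0.39, 0.29 to 0.49) in the library labelled DTX. *Tnfaip3* in the library labelled PBS was at 176 and 128 CPM (0.46, 0.06 to 0.83). The receptors and *Birc3* stood below 1.5-fold in both libraries. After thinning to 4000 UMIs, 2 of the 9 other members were higher by 1.5-fold or more in each library, where 256 of 6180 and 144 of 8536 genes were. Each thinning is 1 random draw, which the intervals do not cover. In another draw at 2000 UMIs 179 and 445 cells had a *Tnf* UMI.

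Inside single subclusters the split gave 8 comparisons with at least 20 *Tnf* cells. *Nfkbiz* was higher in cells with *Tnf* in 7 of the 7 that had enough UMIs, and *Tnfaip3* and *Nfkbia* in 7 of 8, with the interval above 0 in 3, 4 and 5 of them. *Icam1* had enough UMIs in 3 and was higher in 2. *Nfkb1* was higher in 6 of 8 and *Tnfrsf1b* in 5 of 8. *Traf1* was higher in 3 of 8, *Tnfrsf1a* in 2 of 8 and *Birc3* in 2 of 6. In subcluster 0 of the library labelled DTX 1 member was higher and 1 lower by 1.5-fold or more, where 294 and 530 of 4711 genes were. In subcluster 2 of that library 2 were higher and 2 lower, where 284 and 530 of 4147 genes were. None was lower by that much in the other comparisons. In the library labelled PBS subcluster 1 had 3 of 8 higher, where 254 of 3314 genes were higher and 392 lower. Subcluster 3 had 2 of 8 higher (genes, 146 and 240 of 2114). In the library labelled DTX subcluster 1 had 2 of 6 higher (232 and 327 of 2168). Subcluster 3 had 3 of 7 (107 and 149 of 1244) and subcluster 4 had 3 of 9 (222 and 386 of 3438). Subcluster 5 had 0 of 8 (265 and 434 of 2807). Over the whole class immediate early and heat shock genes were also higher in cells with *Tnf*, 5 of 10 by 1.5-fold or more in the library labelled PBS and 4 of 10 in the library labelled DTX, with *Egr1* at 1.01 and 0.88 and *Atf3* at 0.65 and 1.11. After thinning to 4000 UMIs 3 and 5 of these 10 genes were higher by that much. Inside the subclusters they were uneven. In the library labelled PBS 2 were higher in subcluster 1 and 3 in subcluster 3, with 0 lower, and in the library labelled DTX 6 were higher in subcluster 3 and 3 in subcluster 4, with 0 lower. In the library labelled DTX subcluster 2 had 2 higher and 1 lower, subclusters 0 and 5 had 1 higher and 2 lower each, and subcluster 1 had 0 higher and 2 lower of 9 tested. Among pathway genes, *Ccl3* had ratios of 1.33 and 1.19 and *Cxcl2* of 0.48 and 0.67. The part of digestion in the split was not tested. In neutrophil-like cells of the library labelled DTX, thinned to 1000 UMIs, 38 cells with *Tnf* had *Tnfaip3* at 816 CPM and the 387 cells without at 248 (1.71, 1.08 to 2.31), *Tnfrsf1b* at 895 and 372 (1.26, 0.68 to 1.81) and *Nfkbia* at 5842 and 2757 (1.08, 0.87 to 1.29). In this split 4 of the 8 members tested were higher by 1.5-fold or more, as were 4 of 6 immediate early and heat shock genes, where 11.1% of 1099 genes were higher and 26.8% lower.

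**Figure D4:**
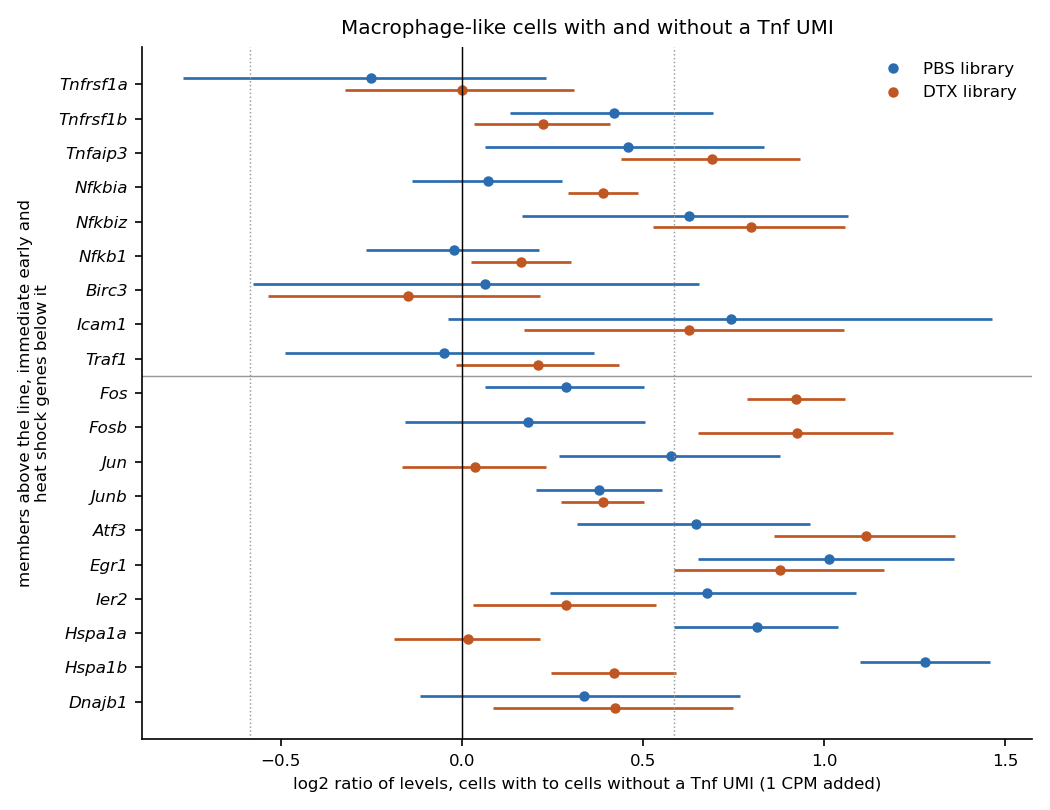
Log2 ratios of levels in macrophage-like cells with a *Tnf* UMI to those without, after thinning to 2000 UMIs and with 1 CPM added, for the 9 other genes (above the line) and 10 immediate early and heat shock genes (below it), with 95% counting intervals, in the libraries labelled PBS (blue) and DTX (orange). *Nfkbiz* is beyond the dotted line at 1.5-fold in both libraries, at 0.63 and 0.80, and several immediate early genes are as well.

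*Tnf* UMIs were also counted per cell. In macrophage-like cells thinned to 2000 UMIs no cell of the library labelled PBS had more than 3 *Tnf* UMIs and none of the library labelled DTX more than 4, with means of 1.19 and 1.14 in the cells that had any. Of the 429 neutrophil-like cells of the library labelled DTX only 171 were deep enough for this thinning. Of these 31 had *Tnf*, with a mean of 3.16 and a highest count of 19. *Nfkbia*, with 1153 UMIs there against 98 of *Tnf*, was read in 156 of the 171 cells. Its mean in those cells was 7.39 UMIs and its highest count 41. Whether the spread over cells differed beyond the number of UMIs was not tested.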

How the data were processed

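Single-cell libraries of day 5 wounds, 1 labelled PBS and 1 labelled DTX, were analysed. The authors deposited UMI counts, not normalized, for each gene in each barcode, which Cell Ranger (6.1.1 in the submitters' processing notes) had made on mm10. Totals were 105511870 UMIs in 12058 barcodes (PBS) and 81858751 in 11031 (DTX). The study gives these same numbers, as cells left after quality control, to the Mrc1-DTR and the control group, the reverse of the labels, which were followed.

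Cells below 500 genes or above 6% mitochondrial UMIs were left out. The methods also cap cells at 2000 genes, which 55.9% and 52.2% of the barcodes exceed, so the cap was an alternative. Scrublet (scanpy 1.11.5, expected rate 8%) set the doublet threshold of the library labelled PBS (382 cells removed); in the library labelled DTX it called none, so the top 8% of scores were removed (575). Cells were clustered in R 4.3.3 with Seurat 5.3.0 (2000 variable genes without the members and the pathway list, 30 principal components, resolution 0.2, and 0.5 for subclusters) and named from marker lists. A class kept its name from markers at least 2-fold over the median cluster; other clusters stayed unnamed.

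UMIs were summed per class and library and given as CPM with exact Poisson intervals. Log2 ratios had 1 CPM added to each level and conditional binomial intervals. Genes with at least 50 UMIs in both libraries together counted as higher or lower at 1.5-fold. Shares were taken after thinning to 1000 UMIs, and the *Tnf* split after thinning to 2000. Python 3.11.15, numpy 2.4.6, scipy 1.17.1, pandas 2.3.3 and matplotlib 3.10.9 were used. The ratio calculation was tested on simulated data.

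The members and all lists were chosen with earlier results of these data known. Named genes were the members, the 5 highest and 5 lowest pathway genes past 1.5-fold in macrophage-like cells, the 3 genes most like each member (some are not reported here), *Mrc1*, and genes of the marker and other lists. Alternatives were other filters, doublets kept, other clusterings, pseudocounts, depths and summaries. Gene positions are those of GRCm38, with promoter windows from RefSeq.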

Additional observations from a re-analysis of the deposited data

How the results depend on the processing

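In macrophage-like cells *Nfkbia* remained the 1 member past 1.5-fold under the other filters, clusterings, pseudocounts, centring and summaries tried (0.65 to 0.76). With the subcluster makeup of the library labelled PBS, added after seeing the data, 0 members were higher, where 5.91% of 10254 genes were. For the other settings of the comparison between the libraries no share over all genes is given, so their counts of members past 1.5-fold are not read as results about the members. With at most 2000 genes per cell, 3 members were lower in dendritic-like cells (107 and 21 cells, median -0.53) and 1 was higher in NK or T-like cells (82 and 30 cells, median 0.36). In fibroblast-like cells (518 and 43 cells) 0 were higher and 2 lower (median -0.46). In the library labelled DTX these classes then held fewer than the 50 cells asked for in the main comparison. With a mitochondrial limit of 10%, 0 members were higher and 1 lower in neutrophil-like cells, 1 was lower in NK or T-like cells, 2 were higher in fibroblast-like cells and 1 in epithelial-like and in endothelial-like cells. With doublets kept, 0 were higher and 1 lower in neutrophil-like cells and 1 was lower in NK or T-like cells. With means of single-cell CPM, 1 was lower in neutrophil-like cells, and 1 was higher in NK or T-like, pericyte-like and endothelial-like cells. With ratios centred on the median gene, 2 were lower in fibroblast-like cells (median -0.18). With no minimum of UMIs, 1 was lower in NK or T-like and in endothelial-like cells, which is the gene with too few UMIs, and clustering with all variable genes made 1 higher in dendritic-like cells. The *Tnf* split turned over for *Tnfaip3* within macrophage subcluster 5 (-0.15) and for *Icam1* within subcluster 0 (-0.79), both in the library labelled DTX. Over all macrophage-like cells of that library, thinning to 4000 UMIs left 2 members higher by 1.5-fold or more, where 144 of 8536 genes were. Levels by class also depended on the settings. With at most 2000 genes per cell 77 were counted as moved and 33 as the same. With means of single-cell CPM 55 were moved and 105 the same, and with doublets kept 36 and 124. Without the barcodes shared by both libraries 160 were the same. With at most 2000 genes per cell 21 log2 ratios were moved and 23 the same. The levels and class orders above are those of the main settings. The cause of these and the other changes was not tested. With at most 2000 genes per cell, epithelial-like, pericyte-like and endothelial-like cells had fewer than 20 cells in a library and gave no value. No paired analysis was possible because each group has 1 library and no test was made. The intervals are wide in small classes and for genes with few UMIs, and they do not cover differences between mice or captures.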
